A study of Mus musculus with 6 samples.

Results

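Klrg1 and 5 other receptors that dampen lymphocyte or myeloid activation from outside the CD28 and B7 family (Cd96, Havcr2, Vsir, Cd200r1 and Lair1), together with the surface marker Thy1, were taken by gene symbol from a table of 23268 genes. All 7 were found. The table holds RNA sequencing of group 2 innate lymphoid cells (ILC2s), tissue-resident lymphocytes that make type 2 cytokines without an antigen receptor, sorted from the colon. The 3 control libraries came from C57BL/6 mice aged 6 to 8 weeks that drank water. The 3 DSS libraries came from mice of the same strain and age given 3% dextran sulfate sodium, which injures the colonic epithelium and causes colitis, for 6 days. The question put to these 7 genes is whether their transcripts differ in ILC2s during DSS colitis. The labels name no sort markers and leave it unsaid whether a library is 1 mouse or several pooled, so the p-values reflect only how far these samples scatter, part of which may be technical.

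Inhibitory surface receptors set a threshold on lymphocyte activation. Many carry a short cytoplasmic stretch around a tyrosine, the immunoreceptor tyrosine-based inhibitory motif (ITIM), which when phosphorylated recruits the phosphatases SHP-1, SHP-2 or SHIP-1 and so dampens kinase signalling. KLRG1 is a C-type lectin-like receptor for cadherins, E-cadherin of epithelial cells among them, and is widely used to mark mature ILC2s. CD96 binds the poliovirus receptor and shares it with TIGIT and the activating receptor CD226. TIM-3, the product of Havcr2, VISTA, the product of Vsir, and the CD200 receptor have no classical ITIM, while LAIR1 binds collagens and has a pair of them. THY1 (CD90) is a protein anchored to the membrane by a glycolipid, used to gate innate lymphoid cells, and is not an ITIM receptor.

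The ITIM codons are shown because this motif is the known signalling element of several inhibitory receptors. The coding sequences (GENCODE M21, build GRCm38) were searched for codons of serine, isoleucine, valine or leucine, then any residue, tyrosine, any 2 residues, and isoleucine, valine or leucine. Klrg1, Cd96 and Lair1 had 2 matches each, and Havcr2, Vsir, Cd200r1 and Thy1 had 0. Such letters are common, since 48.9% of 21516 coding genes had at least 1 match, and a match is a description of sequence only. The matches nearest the cytoplasmic end are printed 5′ to 3′ on the coding strand, with the 18 matching bases in capitals and up to 15 bases on each side.
Klrg1, tyrosine at codon 7 of 188: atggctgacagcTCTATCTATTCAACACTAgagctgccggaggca
Cd96, tyrosine at codon 583 of 602: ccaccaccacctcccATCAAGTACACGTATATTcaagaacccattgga
Lair1, tyrosine at codon 228 of 263: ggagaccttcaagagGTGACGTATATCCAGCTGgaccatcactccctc
Lair1, tyrosine at codon 257 of 263: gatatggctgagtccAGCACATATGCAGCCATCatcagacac
The Klrg1 motif lies at the start of the protein, which in this lectin family is the cytoplasmic end, and those of Cd96 and Lair1 lie near the other end. The second match of Klrg1 (codon 56) and the first of Cd96 (codon 11) lie outside these cytoplasmic ends and are not printed.

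Values are FPKM, fragments per gene length and per library depth, so levels of different genes can be compared. Depths recovered from the steps of the values were 9962415 to 23119390 fragments per library. Each log2 change is the DSS mean less the control mean of log2(FPKM + 1), tested by limma in the 12187 genes that averaged 1 FPKM or more, with p-values adjusted over all of them. The libraries did not separate by treatment alone. Olfactory receptor genes, not known to be used by lymphocytes, averaged 0.962 FPKM in DSS replicate 3 and 0.583 in control replicate 3, against 0.0342 to 0.182 in the other 4. The ribosomal protein share of fragments was 12.49% in DSS replicate 1 and 5.97% to 8.47% elsewhere. Gata3, used as an ILC2 marker, was at 841 to 885 FPKM in the controls and at 287 to 674 in DSS. Of other genes on the ILC2 marker list, Il1rl1 was at 42.1 to 59.9 in all 6 libraries, Il17rb at 241 to 341 and Ptgdr2 at 0 to 0.885. Genes of other innate lymphocytes were also present, with the ILC3 cytokine gene Il22 at 48.7 to 262 FPKM and the NK cell gene Nkg7 at 72.7 to 312. In bulk libraries fewer cells of a type and less RNA per cell cannot be told apart.

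None of the 6 members tested differed between the groups by limma at an adjusted p of 0.05, where 0.222% of all genes did. On simulated data with the spread of these libraries, the same test recovered 1.1% of 2-fold changes, so 0 calls do not show similar levels. Vsir alone of the 6 had an unadjusted p below 0.05 (8.99% of all genes), and limma voom on the recovered fragments also called 0. Vsir was also the 1 member whose groups did not overlap, lower in DSS, as for 9.6% of all genes. In no member did all 3 DSS libraries lie above the controls, as for 6.35% of all genes. The fitted change was below 0 in 4 members (Havcr2, Vsir, Thy1 and Klrg1) and close to 0 in 2 (Cd96 and Cd200r1). The median over the 6 was −0.38, beside 0.031 over all genes tested. Over the 6734 genes averaging 5 FPKM or more, which hold 5 of the members, the all-gene median was −0.081.

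**Figure D1:**
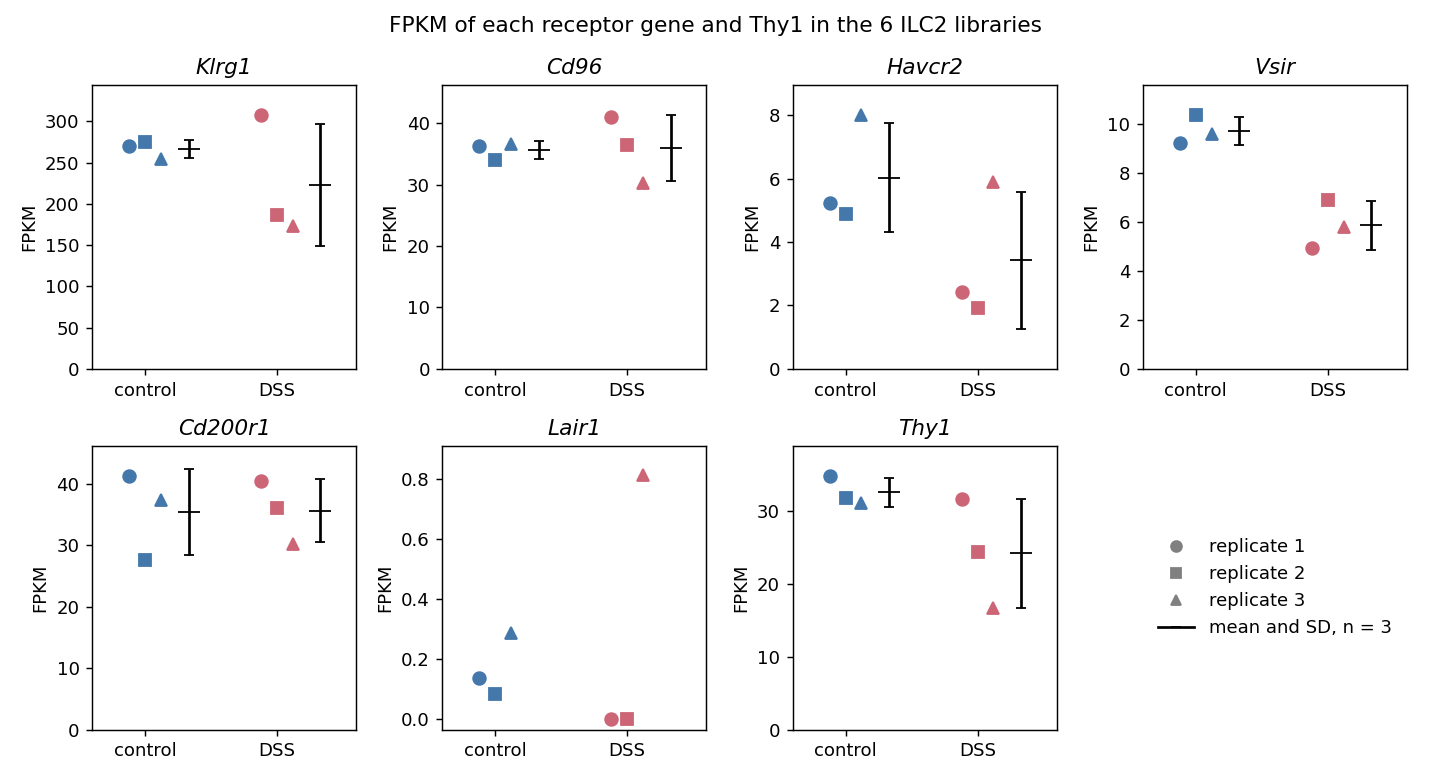
FPKM (vertical axes) of each gene in the 3 control and 3 DSS libraries; points are libraries, with the shape giving the replicate number, and bars are mean and SD (n = 3; none drawn for Lair1, which was at 0 in DSS replicates 1 and 2). The groups are apart in Vsir, and DSS replicate 1 stands above the other DSS libraries in Klrg1 and Thy1.

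Klrg1 (chromosome 6, 122270596 to 122282882, minus strand; this and the positions below are on GRCm38, the same build as mm10) was the most abundant member. Its level was 270, 275 and 254 FPKM in control replicates 1, 2 and 3, and 307, 187 and 173 in DSS replicates 1, 2 and 3. DSS replicates 2 and 3 lay below every control and DSS replicate 1 above every control, so the DSS libraries fell on both sides of a tight control group. The means were 266 ± 10.96 (SD, n = 3) and 222 ± 73.9. The log2 change was −0.31 ± 0.25 SE (limma adjusted p = 0.805), with a 95% interval from −0.86 to 0.25, so both a fall to 0.550 of the control level and a rise to 1.19 times it lie inside.

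That result turned on DSS replicate 1. Without it the Klrg1 change was −0.56 ± 0.12 SE and passed (limma adjusted p = 0.0295), in a fit that called 413 genes. Without DSS replicate 2 alone or DSS replicate 3 alone it was −0.21 and −0.15 (limma adjusted p = 0.860 and 0.844). DSS replicate 1 is the library with the highest ribosomal protein share and the lowest Gata3. Klrg1 is also made by NK cells and some T cells. The 11 NK and ILC1 markers in the table summed to 390.5, 370 and 496 FPKM in control replicates 1, 2 and 3 and to 613, 312 and 197 in DSS replicates 1, 2 and 3. The DSS sums have the order of Klrg1 in those libraries, and the control sums have the reverse of it. Nkg7 was the largest part of every sum, at 274, 137 and 72.7 FPKM in DSS replicates 1, 2 and 3. Gzma, Gzmb, Xcl1 and Ccl5 had the same order in DSS. Tbx21 (0.858, 10.05 and 5.53) and Prf1 (3.77, 9.05 and 10.9) were instead lowest in DSS replicate 1. Among the 11 markers Eomes, which defines NK cells, was at 0 in control replicate 2 and DSS replicate 2 and at 1.11 or less elsewhere. Klra8 was at 0 in control replicate 2. The 10 T cell markers summed to 133.5 to 157 and 165 to 225.5, with Cd8a or Cd8b1 at 0 in some library. Lat was the largest part of every sum, at 77.0 to 109 FPKM in the controls and 111.5 to 148 in DSS. Over all 6 libraries Cd3g was at 17.0 to 37.6, Cd3e at 1.62 to 4.43 and Cd4 at 0.661 to 3.06. Of the 9 tested in each list, 0 passed limma (1 and 0 at an unadjusted p under 0.05, 0 by voom). The part of these cells in the Klrg1 values was not tested.

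**Figure D2:**
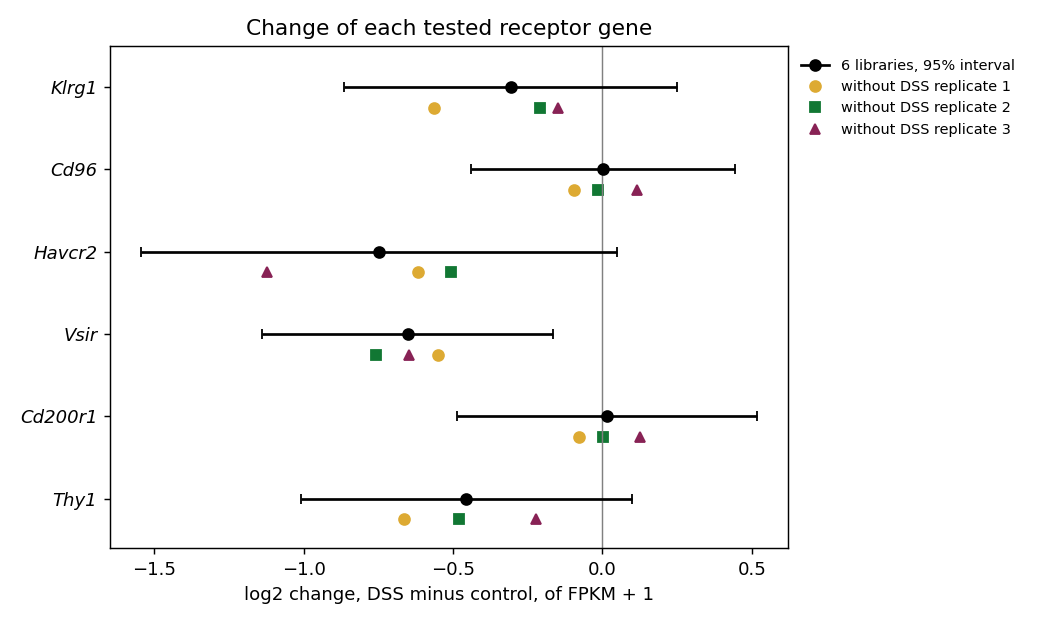
Log2 change of FPKM + 1, DSS minus control (horizontal axis), of the 6 tested genes; black points and bars are the estimate from 6 libraries with its 95% interval, coloured points the estimate without DSS replicate 1, 2 or 3. The Vsir interval lies below 0 before adjustment for multiple testing, and Klrg1 moves to −0.56 without DSS replicate 1.

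Thy1 (chromosome 9, 44043384 to 44048579, plus strand) followed a similar course. It measured 34.8, 31.8 and 31.2 FPKM in the controls and 31.7, 24.3 and 16.7 in DSS replicates 1, 2 and 3. DSS replicates 2 and 3 lay below every control and DSS replicate 1 inside their range. The log2 change was −0.46 ± 0.25 SE (limma adjusted p = 0.653; 95% interval −1.01 to 0.099). It was −0.66 without DSS replicate 1 (limma adjusted p = 0.0679) and −0.22 without DSS replicate 3. Fibroblasts also make Thy1, and the 11 stromal markers summed to 16.5 to 31.8 FPKM in the controls and 18.1 to 32.8 in DSS, with 0 of 7 tested passing limma (0 at an unadjusted p under 0.05, 0 by voom) and Lum and Col6a1 at 0 in some library. Other proteins with the same kind of membrane anchor mostly had a fitted change of the other sign. Of 12 tested, 10 had a higher value in DSS, with a median log2 change of 0.52, though 0 passed limma (4 at an unadjusted p under 0.05, 0 by voom). The 20 genes of this list summed to 3230, 3046 and 2570 FPKM in control replicates 1, 2 and 3. In DSS replicates 1, 2 and 3 they summed to 5449, 3249 and 2640. The sum was thus raised mainly in DSS replicate 1, where Thy1 was also the highest of the DSS libraries. Ly6c1 measured 156 ± 58.7 and 352 ± 125 FPKM, Ly6c2 1.64 ± 1.46 and 11.5 ± 13.2, and Cd24a, a small sialoglycoprotein, 11.9 ± 3.16 and 23.1 ± 10.6.

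Cd96 (chromosome 16, 46035657 to 46120251, minus strand) had a fitted change near 0. It measured 36.2, 34.0 and 36.6 FPKM in the controls and 41.0, 36.4 and 30.3 in DSS, the DSS values spreading to both sides of the controls. The log2 change was 0.0020 ± 0.20 SE (limma adjusted p = 0.999). The 95% interval of −0.44 to 0.45 leaves room for levels from 0.737 to 1.36 times the control, so similar levels are not shown. Its sign changed with the setting. Its partner receptor Tigit, which binds the same ligand, measured 11.5, 9.08 and 13.0 FPKM in the controls and 16.7, 19.8 and 17.4 in DSS, with every DSS library above every control. The Tigit log2 change of 0.64 ± 0.21 SE did not pass (limma adjusted p = 0.346). The activating Cd226 was at 3.28 to 5.73 FPKM over all 6 libraries and the ligand gene Pvr at 2.48 to 5.59, with log2 changes of −0.029 and 0.11 (limma adjusted p = 0.989 and 0.949). Cd226 and Pvr, with Lilrb4a, Lgals9, Selplg, Cd200, Klrb1b, Cdh1, Ptgdr2, Il22, Nkg7, Cd209a and H2-DMb2 elsewhere, were chosen for naming after their values were seen. So were Il17rb, Gzma, Gzmb, Tbx21, Prf1, Cd3e, Cd3g and Cd4.

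Vsir (chromosome 10, 60346851 to 60372684, plus strand) had the clearest separation of the members. It measured 9.24, 10.4 and 9.59 FPKM in the controls and 4.93, 6.91 and 5.78 in DSS, resting on 283 to 1047 fragments per library. The lowest control lay above the highest DSS library. The means were 9.73 ± 0.571 and 5.87 ± 0.994 (SD, n = 3), or 1.66-fold lower in DSS. The log2 change of −0.65 ± 0.22 SE did not pass over all genes (limma adjusted p = 0.346; 95% interval −1.14 to −0.16). No single library carried it, since without 1 library it ran from −0.76 to −0.55 with limma adjusted p-values of 0.155 to 0.9999. Vsir lies within the span of the cadherin gene Cdh23 on the opposite strand, and their annotated exons share 0 bases. These libraries do not mark the strand, so intronic Cdh23 fragments in Vsir exons cannot be told apart from Vsir.

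Myeloid cells also express Vsir, and the summed macrophage and neutrophil markers were higher by value in DSS. The 14 macrophage markers summed to 14.0 to 19.4 FPKM in the controls and 21.4 to 52.8 in DSS. Of 4 tested, 4 had a higher value in DSS and 0 passed limma (2 at an unadjusted p under 0.05, 0 by voom), and Adgre1, Csf1r, C1qa, C1qc, Itgam, Mrc1 and Ms4a7 were at 0 in some library. The 12 neutrophil markers summed to 3.19 to 9.34 and 69.0 to 113.5 FPKM, and 3 of 7 tested passed limma, all higher (S100a8, S100a9 and Retnlg), against 0 by voom. Of the 7, 6 had a higher value in DSS and 1 (Mmp9) a lower one. S100a8, Retnlg, Ly6g, Cxcr2, Mmp8, Camp, Ltf, Ngp and Lcn2 were at 0 in some library. In DSS, S100a8, S100a9 and Retnlg averaged 28.1, 40.75 and 11.95 FPKM, while Ly6g and Cxcr2 averaged 0.0702 and 0.353. The 9 dendritic cell markers summed to 15.3 to 24.5 and 8.68 to 27.2, with Itgax, Clec9a, Cd209a, Ccl22 and Siglech at 0 in some library. Of 4 tested, 0 passed limma (2 at an unadjusted p under 0.05, 0 by voom). Those 2 are Xcr1, at 6.36 ± 1.55 and 1.897 ± 0.967 FPKM, and Zbtb46, at 9.21 ± 0.758 and 3.46 ± 1.92, and both had lower values in DSS without overlap. The other 2 tested, Cd209a and H2-DMb2, had higher values in DSS (log2 changes 1.07 and 0.41) with overlap. The part of macrophages, neutrophils and dendritic cells in the Vsir values was not tested.

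Havcr2 (chromosome 11, 46454935 to 46481255, plus strand) had the most negative fitted change of the members. It measured 5.22, 4.87 and 7.99 FPKM in the controls and 2.43, 1.93 and 5.89 in DSS. Within each group replicate 3 was the highest, and DSS replicate 3 lay above control replicates 1 and 2, so the groups overlapped. The fragments behind these values were 332, 235 and 279 in the controls and 99, 101 and 162 in DSS. The log2 change was −0.75 ± 0.36 SE (limma adjusted p = 0.589; 95% interval −1.55 to 0.049). It was −1.12 ± 0.29 SE without DSS replicate 3 (limma adjusted p = 0.153) and −0.93 without both replicates 3 (0.420). Replicates 3 are the libraries with the most olfactory receptor signal, and the part of that signal in the Havcr2 values was not tested. Havcr2 is also made by the myeloid cells described for Vsir.

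Cd200r1 (chromosome 16, 44765736 to 44794978, plus strand) measured 41.3, 27.7 and 37.4 FPKM in the controls and 40.5, 36.1 and 30.3 in DSS. All 3 DSS libraries lay inside the control range. The log2 change was 0.016 ± 0.22 SE (limma adjusted p = 0.991; 95% interval −0.49 to 0.52), and its sign changed with the setting. Its paralogue Cd200r4, which signals through an activating adaptor, measured 9.79, 13.0 and 11.7 FPKM in the controls and 6.52, 5.79 and 5.78 in DSS, every DSS library below every control. The Cd200r4 log2 change of −0.82 ± 0.21 SE did not pass (limma adjusted p = 0.196). Genes of this family resemble each other, so how fragments were split between Cd200r1 and its copies is uncertain. The ligand gene Cd200 was at 0.510 to 3.80 FPKM in all 6 libraries.

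Lair1 (chromosome 7, 4003402 to 4063204, minus strand) was near absent and fell below the filter. It measured 0.138, 0.0826 and 0.285 FPKM in the controls, on 22, 10 and 25 fragments. In DSS it was at 0, 0 and 0.812 FPKM, on 0, 0 and 56 fragments. A count of 0 allows up to 3 fragments, or 0.0293 and 0.0229 FPKM in DSS replicates 1 and 2, a limit for counting error only. DSS replicate 3 was thus the highest of all 6 libraries and the other DSS libraries the lowest. With no filter its limma adjusted p was 0.979. The plot of Havcr2, Lair1 and Vsir by library sets these values beside the olfactory signal.

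**Figure D3:**
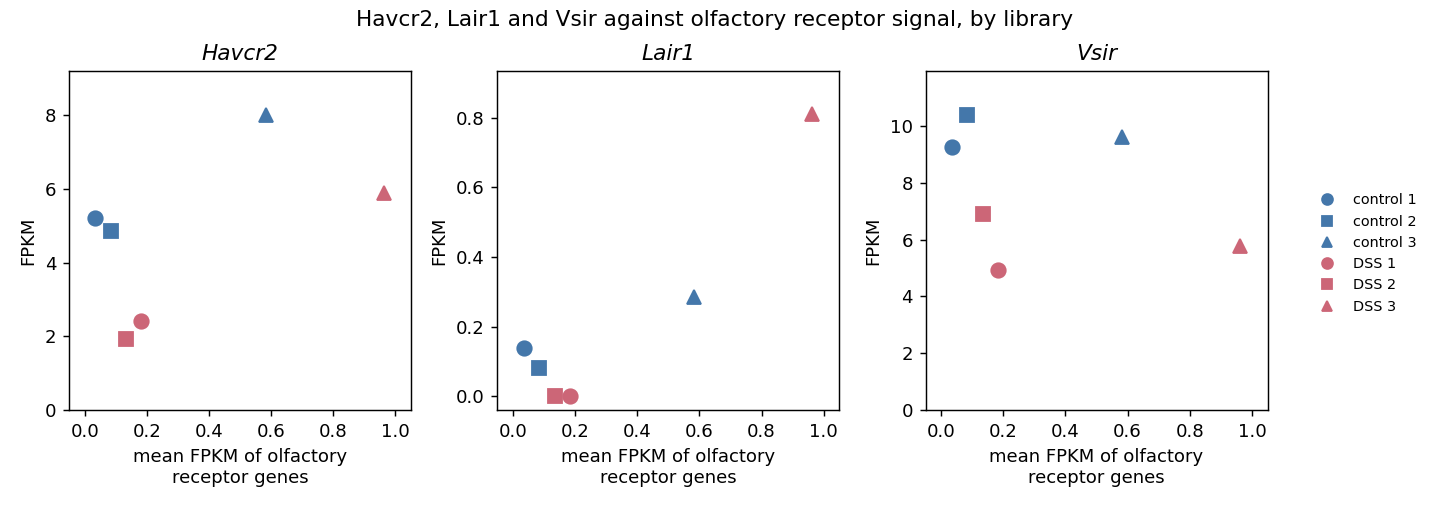
FPKM of Havcr2, Lair1 and Vsir (vertical axes) against the mean FPKM of 1103 olfactory receptor genes (horizontal axes), 1 point per library. Lair1 is highest in DSS replicate 3, where the olfactory mean is 0.962, and Vsir is lower in the 3 DSS libraries than in every control. The part of the olfactory signal in these values was not tested.

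The levels were ordered Klrg1, then Cd96, Cd200r1 and Thy1, then Vsir, Havcr2 and Lair1 in control means. Cd96 and Cd200r1, and Cd96 and Thy1, overlapped in range in the controls, so their order there is not resolved. Vsir lay above Havcr2 in the controls and their ranges overlapped in DSS. Klrg1 made up 63.9% to 71.8% of the summed FPKM of the 7 members in every library, and its mean over the 6 libraries was above that of 97.8% of the genes tested. In DSS, Klrg1, Cd96, Cd200r1 and Thy1 were each highest in replicate 1 and lowest in replicate 3, and the ribosomal protein share was ordered in the same way (12.49%, 8.47% and 5.97%). The part of that share in the 4 genes was not tested.

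Among 17 other tested genes from a list of inhibitory receptors and their relatives outside the CD28 family, which holds the activating paralogue Cd200r4 too, Lilrb4a, an ITIM receptor, was the 1 gene at a level like that of Klrg1. It measured 310.5, 291 and 291 FPKM in the controls and 261, 326 and 298.5 in DSS, with overlapping groups (log2 change −0.018, limma adjusted p = 0.989). Klrb1b, an ITIM lectin-like receptor, was at 28.4 to 46.0 over the 6 libraries. By limma 0 of the 17 passed (3 at an unadjusted p under 0.05, 0 by voom), with 8 higher and 9 lower by value and a median log2 change of −0.018. Those 3 were Tigit, Cd200r4 and Pecam1. Pecam1, an adhesion receptor with ITIMs, measured 12.6 ± 0.813 and 6.53 ± 4.73 FPKM, and was lowest, at 1.43, in DSS replicate 1. The median of all genes tested was 0.031, and −0.081 over those averaging 5 FPKM or more. The list as a whole was thus not offset as the median of the 6 members was, a difference that was not tested.

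**Figure D4:**
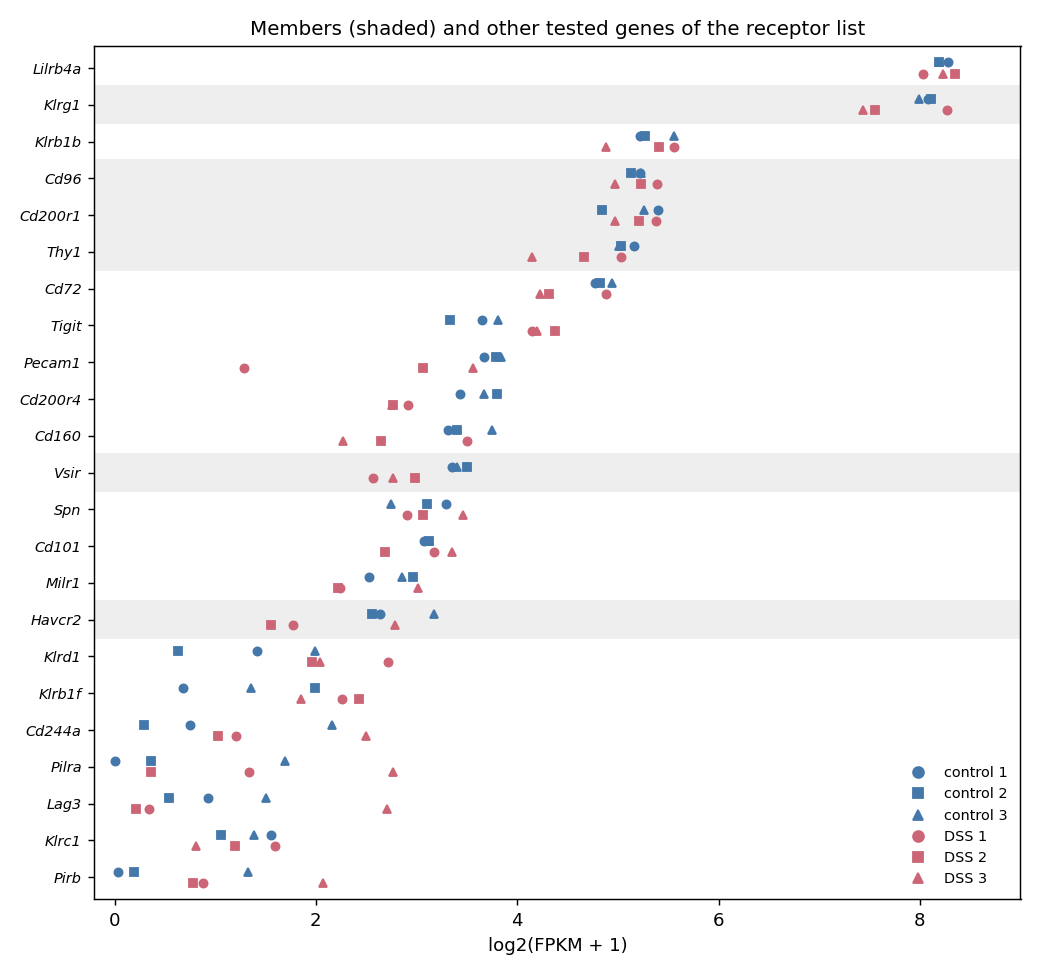
Log2(FPKM + 1) (horizontal axis) of the 6 tested members (shaded rows) and 17 other genes of the receptor list, the activating Cd200r4 among them, ordered by mean level; blue points are control and red points DSS libraries, with the shape giving the replicate. Klrg1 and Lilrb4a stand above all others, and Vsir, Cd200r4 and Pecam1 have every DSS point left of every control point.

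Of 22 genes for ligands and binding partners of these receptors, 9 averaged below 1 FPKM in the sorted cells. Cdh1, the E-cadherin gene, was at 0.145 to 2.17 FPKM. Lgals9, which encodes the TIM-3 ligand galectin-9, was at 124 to 168, and Selplg, which encodes PSGL-1, a selectin ligand that also binds VISTA, at 134 to 160.5. Of 13 tested ligand genes 0 passed limma (2 at an unadjusted p under 0.05, 0 by voom), with a median log2 change of 0.11. Those 2 encode the chains of the integrin that binds THY1, and their values went opposite ways. Itgav measured 46.7 ± 5.45 and 33.5 ± 4.996 FPKM and Itgb3 40.7 ± 1.498 and 59.7 ± 8.84, each without overlap. Itgb2, the chain of the leukocyte integrins, measured 26.8 ± 4.82 and 18.9 ± 7.83.

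Downstream of the receptors, 0 of 14 tested signalling genes passed limma (1 at an unadjusted p under 0.05, 0 by voom), with 6 higher and 8 lower by value and a median log2 change of −0.11. Ptpn6, which encodes SHP-1, measured 30.6 ± 8.80 and 20.8 ± 9.47 FPKM, with overlapping groups. The Src family kinase genes Lyn and Lck, whose products phosphorylate ITIMs, measured 34.3 ± 4.18 and 24.8 ± 2.53, and 26.9 ± 3.80 and 20.6 ± 4.24. Lyn was the 1 with an unadjusted p under 0.05 (limma adjusted p = 0.553). Of 14 tested activating receptors and adaptors, 11 had a higher value in DSS, with a median log2 change of 0.32, and 0 passed limma (1 at an unadjusted p under 0.05, 0 by voom). The 16 genes of this list summed to 397, 441 and 406 FPKM in control replicates 1, 2 and 3. In DSS replicates 1, 2 and 3 they summed to 844, 479 and 369, so the sum of DSS replicate 3 lay below every control. Tyrobp, which encodes the adaptor DAP12, measured 10.8 ± 8.07 and 24.1 ± 5.32 FPKM. Klrk1, the NKG2D gene, measured 17.2 ± 2.54 and 25.1 ± 6.73, and Cd48 35.8 ± 0.455 and 47.3 ± 12.8. Tyrobp is also a myeloid and NK cell gene, and the part of those cells was not tested.

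Of the ILC2 markers, 13 of 15 tested had a lower value in DSS, with a median log2 change of −0.63. The groups did not overlap in 10, lower in DSS, as for 9.6% of all genes. The other 2, Il7r and Il17rb, had higher values (log2 changes 0.066 and 0.25). An unadjusted limma p under 0.05 was reached by 9 of the 15 (8.99% of all genes), and 1 passed by voom. Only Il5 among the 15 passed limma (359 ± 11.5 and 66.0 ± 7.497 FPKM, adjusted p = 8.66e-04). Rora measured 154 ± 16.7 and 78.3 ± 15.9, and Hlf 24.9 ± 1.80 and 12.6 ± 1.88. The leukocyte gene Ptprc measured 69.2 to 75.0 in all 6 libraries (log2 change −0.0079). Klrg1, itself used to mark ILC2s, thus had a smaller fitted fall than the median of these markers, a difference that was not tested.

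The remaining lists of other cell types are given for completeness of the check on the sort. The 13 epithelial markers summed to 20.6 to 40.2 FPKM in the controls and 55.4 to 58.9 in DSS. All 7 tested had a higher value in DSS and 0 passed limma (3 at an unadjusted p under 0.05, 0 by voom), and 6 of the 13, Vil1 among them, were at 0 in some library. The 7 B and plasma cell markers in the table summed to 26.6 to 39.2 and 49.98 to 291, with Jchain at 13.5 ± 5.18 and 113 ± 74.0 FPKM. ILC3 markers summed to 333 to 441 and 148 to 396, mast cell and basophil markers to 71.9 to 82.7 and 35.6 to 66.1, and endothelial markers to 9.70 to 22.7 and 8.79 to 19.7. In these 4 lists 0 tested genes passed limma (2, 4, 2 and 1 at an unadjusted p under 0.05, 0 by voom). Kit, which stands in the ILC3 and the mast cell list, measured 60.8 ± 2.89 and 30.9 ± 9.26.

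The genes with the most similar course to each member over the 6 libraries are given as a description, with Pearson's r of log2(FPKM + 1) among the 2658 or 2659 other genes averaging 20 FPKM or more. With so few libraries many genes reach a high r. For Klrg1 these were Rexo2, an oligoribonuclease gene (0.992), Arpc3, a subunit of the actin-nucleating ARP2/3 complex (0.990), and Crem, a cAMP-responsive transcription factor (0.990). Crem measured 283, 259 and 257 FPKM in the controls and 314, 167 and 142 in DSS, with DSS replicate 1 above and DSS replicates 2 and 3 below every control, as for Klrg1. For Vsir they were Atp5a1, an ATP synthase subunit (0.999), Dusp10, a MAP kinase phosphatase (0.996), and Zap70, a proximal antigen receptor kinase (0.995). Zap70 measured 137, 153 and 131 FPKM in the controls and 64.6, 89.5 and 76.7 in DSS. For Thy1 they were Snhg1, Tomm22 and Grpel1 (0.998, 0.997 and 0.988), and for Cd96 Ddt, Sfr1 and Fas (0.991, 0.988 and 0.988). For Havcr2 they were Me2, Snora3 and Rnh1 (0.964, 0.955 and 0.930), and for Cd200r1 Nsmce4a, Cenpa and Manbal (0.982, 0.966 and 0.959).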

How the data were processed

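RNA of 6 ILC2 libraries (3 control, 3 DSS) was made into full-length cDNA and paired-end Nextera XT libraries, per the labels' protocols; that method keeps no strand. Per the submitters' processing notes, the tools included cutadapt 1.9 and HISAT2 2.2.1, with mm10; how fragments were counted, and with which annotation, is not given in the sources used here. Values were deposited by the authors as FPKM, in 1 table by gene symbol. Whole fragments (tolerance 0.001) were recovered from the FPKM steps for 100.0% of 22701 genes above 0. This step and the test were also tested on simulated data.

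The members and gene lists were chosen with earlier results of these data known. Genes were tested with limma 3.58.1 (R 4.3.3, eBayes with trend, two-sided) on log2(FPKM + 1), run on genes averaging 1 FPKM or more, with Benjamini-Hochberg adjustment at 0.05. Named genes were the 7 members, list genes that passed or had the 3 smallest p-values, the 3 genes most like each member, and reference genes; not every such gene is printed. Control and DSS libraries of the same number shared deviations from their group means (correlations 0.189, 0.262 and 0.545), which comes from the data, not the labels; control replicate 1 correlated more with DSS replicate 2 (0.345). Alternatives were other pseudocounts, filters, scalings and variance models, voom, a replicate block and leaving out libraries. Positions and coding sequences came from GENCODE M21 (GRCm38). Figures used matplotlib 3.10.9.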

Additional observations from a re-analysis of the deposited data

How the results depend on the processing

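The main count of changed genes was 27 and that of changed members 0. The member count stayed 0 in every alternative but 2: without DSS replicate 1 it was 1 (Klrg1), and with library weights it was 4 (Klrg1, Havcr2, Vsir and Thy1). That weight estimate stopped before it converged and gave DSS replicate 2 a weight of 17.8, with 3286 genes called. With weights updated gene by gene, chosen after seeing the data, 635 genes and 0 members passed. The gene count was 14 with an equal total, 13 after median-of-ratios scaling, 16 after quantile normalization, 4 with no trend and 5 without both replicates 3. Leaving out 1 library gave 4 to 413 genes and 0 to 1 members. Under the replicate block 22 genes and 0 members passed, and no call of a member changed. The fitted changes of Klrg1, Havcr2, Vsir and Thy1 stayed below 0 in all alternatives run. Near 0, Cd96 changed sign with an equal total (−0.060), after median-of-ratios scaling (−0.022) and without control replicate 2 (−0.031), DSS replicate 1 (−0.096) or DSS replicate 2 (−0.013), in a range of −0.096 to 0.12 without 1 library. Cd200r1 did so with an equal total (−0.046), after median-of-ratios scaling (−0.0081) and without control replicate 2 (−0.15) or DSS replicate 1 (−0.079), in a range of −0.15 to 0.13. The cause was not tested. Havcr2 was not tested at a mean FPKM of at least 5. Depth limits Lair1, which had at most 56 fragments.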
